A study of Danio rerio with 12 samples.

Results

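The splicing machinery of the zebrafish eye was followed here through 68 genes. They were picked by a rule on gene names, which was set with earlier results of these data known. The rule took every probe set with exactly 1 platform gene symbol that begins as an SR protein (srsf with a digit), an SF3 subunit (sf3a or sf3b), a small nuclear ribonucleoprotein gene (snrp), a PRPF factor (prpf with a digit) or an hnRNP gene (hnrnp), with the brightest probe set standing for its gene. The array held 19260 such named genes in all. The 68 comprised 20 hnRNP, 17 SR, 12 PRPF, 11 snrp and 8 SF3 genes. Of them 66 were bright enough to be tested, among 14002 tested genes, and hnrnph3 and snrpg were not. On all 12 arrays both stayed below the 33rd percentile taken over probe sets with 1 symbol, with means of 5.15 and 5.61. RNA came from whole eyes of zebrafish that carry a mutation in mmachc, whose product processes vitamin B12 inside the cell. Eyes of heterozygous fish, which carry the mutation too and serve as the controls, and of mutant fish, called homozygous in the titles, were collected at 7 and at 28 days post fertilization (dpf), with 4 groups of 3 pools and 1 array per pool. The labels say neither how many fish entered a pool nor whether pools came from separate clutches. The p-values therefore reflect the spread between pools alone, which may be technical.

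Introns are removed from pre-mRNA by the spliceosome, which assembles anew on each intron from small nuclear ribonucleoproteins (snRNPs). Sm proteins form the ring at the core of these particles, the SF3a and SF3b complexes help the U2 snRNP hold the branch site, and PRPF factors build the tri-snRNP and steer the later catalytic steps. SR proteins and hnRNP proteins bind the pre-mRNA itself and, often in opposition, set which exons are kept. In humans, mutations in several widely expressed tri-snRNP factors, PRPF3, PRPF4, PRPF6, PRPF8, PRPF31 and SNRNP200 among them, cause dominant retinitis pigmentosa, a loss of photoreceptors.

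All values are log2 intensities after RMA, and rises and falls are called at a limma p under 0.05 after Benjamini-Hochberg adjustment over all 14002 genes. Pairs of arrays within a group correlated at 0.989 to 0.994 over these genes. The tissue label was borne out by its markers: the 9 photoreceptor genes matched averaged between 9.20 (gngt2a) and 12.68 (opn1sw1), and the lens gene cryba4 12.58. The mutated gene itself shares its probe set with hspa8 and has no level of its own here. Scaling bears on every direction below. The arrays were made alike over all probe sets. The median of the named probe sets averaged 7.19 in heterozygous against 7.17 in mutant eyes at 7 dpf, but 7.23 against 7.03 at 28 dpf. After centring each array on that median, the median genotype difference of all genes tested at 28 dpf moved from -0.09 to 0.11. Counts are therefore also given relative to the median of all genes, which centring does not change. In whole-eye RNA, fewer cells of a type and less RNA per cell cannot be told apart.

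At 7 dpf splicing genes differed little between the genotypes. Of the 66 tested genes 0 rose and 1 fell, against 4.05% and 8.4% of all genes tested. At an unadjusted p under 0.05, 6 members were higher and 4 lower, which is 9.09% and 6.06% against 8.63% and 16.8% of all genes. The gene that fell was prpf19, the ubiquitin ligase at the core of the Prp19 complex of the spliceosome. Its level was 9.61, 9.50 and 9.36 in the heterozygous and 9.38, 9.27 and 9.15 in the mutant pools, and these ranges overlapped at a single mutant pool. The difference was -0.22 ± 0.07 (± SE, limma adjusted p = 0.0483). The median member differed by -0.0021, the median gene by -0.03. Members ranged from -0.23 in snrpb2, the U2 snRNP protein B'', to 0.25 in the Sm ring gene snrpd3. The 3 mutant arrays lay entirely above the 3 heterozygous arrays for 11 members and entirely below for 5, where 11.8% and 18.6% of all genes did so. Of the 17 tested SR genes 7 were among the higher and 2 among the lower ones, and limma called 0 of the 17. The single fall was lost when any of 10 of the 12 arrays was left out, and held without heterozygous pool 3 or mutant pool 1 of that age.

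At 28 dpf, in the values as deposited, most of the snrp, SF3, PRPF and hnRNP genes fell in mutant eyes. Calls among the SR genes were few and went both ways. Of the 66 members 37 fell and 3 rose, against 39% and 21.8% of all genes. The median member differed by -0.22, the median gene by -0.09. The falls lay almost wholly outside the SR proteins: 34 of the 49 other members fell and 0 rose, while of the 17 SR genes 3 fell and 3 rose. Relative to the median of all genes, 41 of the 49 other members lay lower, against 5 of the 17 SR genes. The 41 were 17 of 19 hnRNP, 9 of 12 PRPF, 8 of 10 snrp and 7 of 8 SF3 genes. The mutant arrays lay entirely below the heterozygous arrays for 37 members and entirely above for 3, where 40.8% and 23.6% of all genes did so. The falls were modest, and 5 members fell at least 1.5-fold, which is 7.58% of the members against 12.1% of all genes. In the same comparison 13 of 15 markers of dividing cells fell, with values given with the other markers, and their part in these falls was not tested.

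The number of falls depended on the scaling. After centring the arrays on their named probe sets 19 members fell and 17 rose, and after quantile normalization of the gene table there were 30 that fell and 6 that rose. Falls made up 64.2% of all calls over the 14002 genes as deposited, 36% after centring and 49% after quantile normalization. The median difference of all genes at 28 dpf was 0.11 after centring and 0.01 after quantile normalization. Shares of all genes that rose or fell under these other scalings are not given, so counts under them do not by themselves show an excess. The 19 members that fell under all 3 scalings were hnrnpa1a, hnrnpa3, hnrnpaba, hnrnph1, hnrnph1l, hnrnpl2, prpf3, prpf4bb, prpf8, prpf18, prpf19, sf3a3, sf3b2, sf3b3, sf3b6, snrpa1, snrpb2, snrpc and snrpd3. The 3 that rose under all of them were srsf3a, srsf3b and srsf7a. No member that fell under 1 scaling rose under another.

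**Figure D1:**
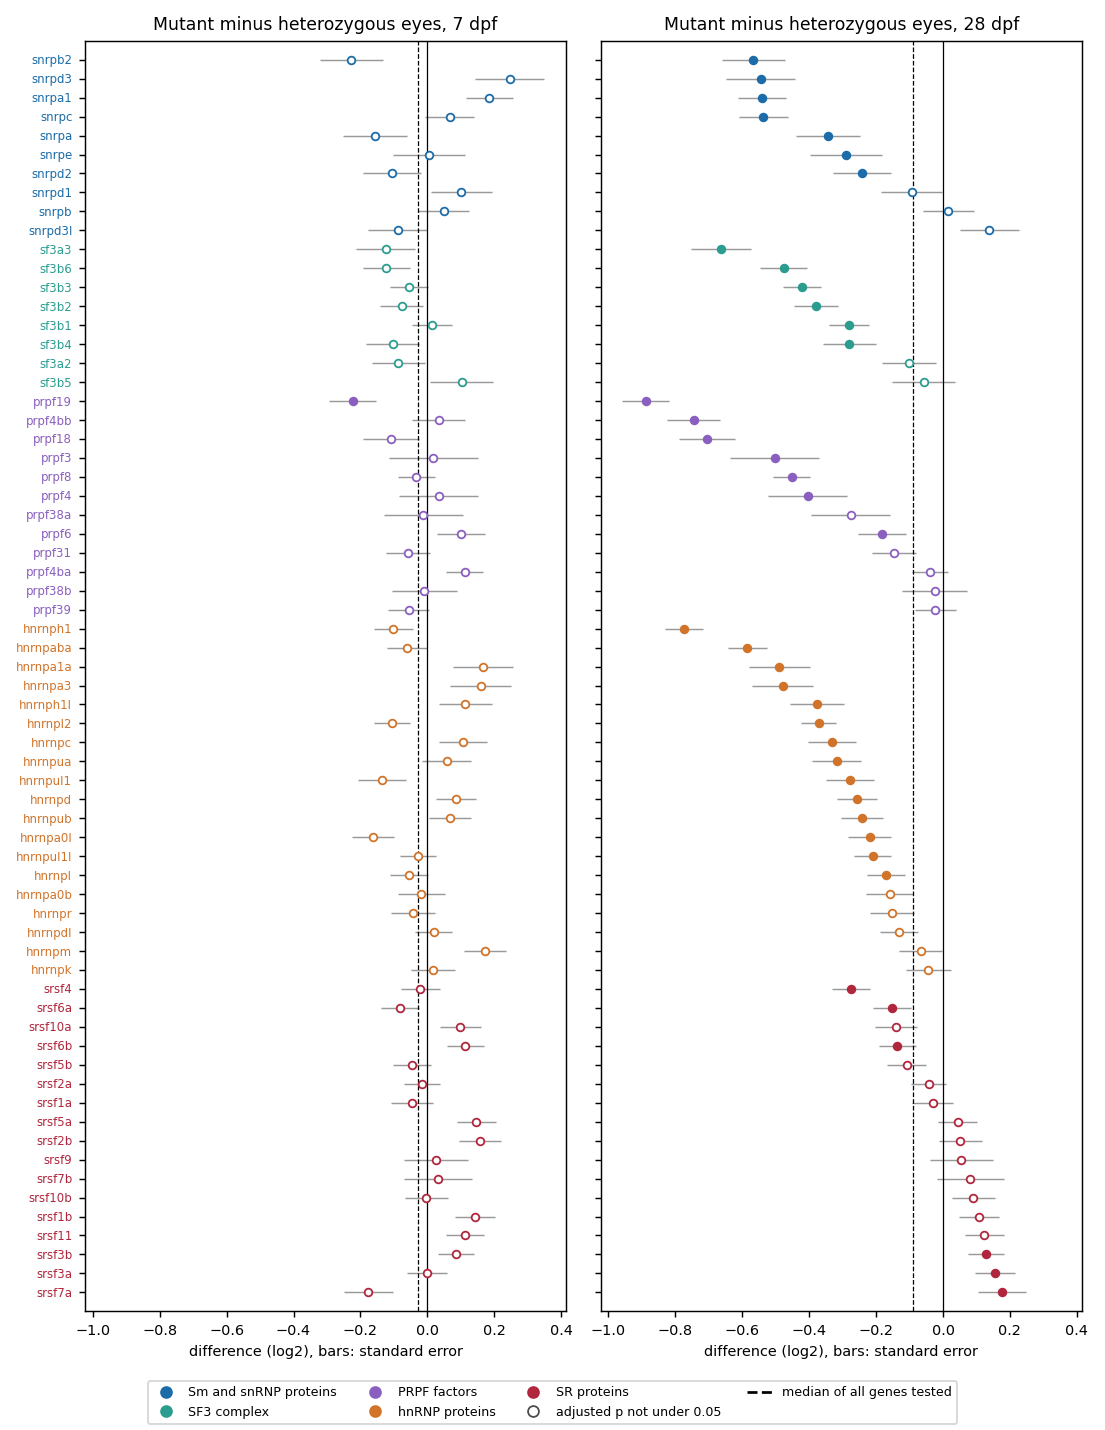
Difference between mutant and heterozygous eyes for the 66 tested splicing genes at 7 dpf (left) and 28 dpf (right), on the log2 scale, with standard errors from the limma fit (n = 3 against 3). Filled points passed the test, the dashed line is the median of all 14002 genes; at 28 dpf filled points lie mostly to the left of it, and 12 of the 17 SR genes at the foot of the plot lie to its right.

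Within the snRNPs, genes of proteins that mark single particles fell as deposited, as did some of the Sm ring genes. Of the 10 tested genes 7 fell and 0 rose (after centring 4 fell and 2 rose), with a median of -0.32. The U1 snRNP protein gene snrpc, whose product helps U1 grip the 5' splice site, read 8.55, 8.47 and 8.49 in heterozygous and 8.54, 8.68 and 8.49 in mutant pools at 7 dpf, then 8.13, 8.07 and 8.02 against 7.63, 7.59 and 7.39 at 28 dpf. Its mutant pools at 28 dpf lay below all other pools, and the difference was -0.54 ± 0.07 (adjusted p = 1.2e-05). The U2 snRNP has a pair of partner proteins, encoded by snrpa1 (the A' protein) and snrpb2 (the B'' protein), and both fell. On the arrays snrpa1 read 8.0, 7.79 and 8.01 in heterozygous and 8.14, 8.07 and 8.15 in mutant pools at 7 dpf, then 7.88, 7.78 and 7.89 against 7.28, 7.29 and 7.36 at 28 dpf. On the same arrays snrpb2 read 7.72, 7.75 and 7.62 in heterozygous and 7.62, 7.55 and 7.23 in mutant pools at 7 dpf, then 7.28, 7.35 and 7.21 against 6.64, 6.81 and 6.69 at 28 dpf. The 28 dpf differences were -0.54 ± 0.07 (adjusted p = 9.14e-06) and -0.57 ± 0.09 (adjusted p = 7.99e-05), with no overlap of the genotypes.

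In the Sm ring, snrpd3 moved most. The probe set of snrpd3 read 6.47, 6.47 and 6.31 in heterozygous and 6.75, 6.73 and 6.51 in mutant pools at 7 dpf, then 6.29, 6.16 and 6.25 against 5.51, 5.74 and 5.81 at 28 dpf, a difference at 28 dpf of -0.55 ± 0.10 (adjusted p = 0.000275). The mutant pools were the highest group at 7 dpf and the lowest at 28 dpf. All 3 of the latter and 2 of the heterozygous pools at 28 dpf were below the 33rd percentile of their arrays, so the size is inexact. The U1 gene snrpa fell by 0.34, and the ring genes snrpe and snrpd2 fell by 0.29 and 0.24 (adjusted p = 0.00507, 0.0275 and 0.0243). After centring these last 3 differed by -0.15, -0.09 and -0.04 and were not called. With the mean over its probe sets snrpa was not called either (adjusted p = 0.194). That mean takes in a dimmer probe set that exceeded the 33rd percentile on 0 arrays. The call of snrpe was also lost without heterozygous pool 2 or 3 or mutant pool 3 of that age, and that of snrpd2 without heterozygous pool 1 or 3 or mutant pool 1 or 2. The other ring genes did not pass: snrpd1 differed by -0.09 ± 0.09, snrpb by 0.02 ± 0.08 and snrpd3l, a second gene of the D3 type, by 0.14 ± 0.09. The dim ring gene snrpg averaged 5.50 in heterozygous and 5.26 in mutant eyes at that age and was not tested.

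In the deposited values the SF3 genes, whose products help hold the branch site, went in the same direction. All 8 SF3 genes differed below 0 as deposited, 6 fell and 4 of these fell under all 3 scalings, with no rise (median -0.33). The SF3a subunit gene sf3a3 read 9.19, 9.32 and 9.24 in heterozygous and 9.26, 9.11 and 9.0 in mutant pools at 7 dpf, then 9.49, 9.21 and 9.48 against 8.58, 8.87 and 8.74 at 28 dpf. All mutant pools at 28 dpf lay below every other pool, at -0.66 ± 0.09 (adjusted p = 1.05e-05). The gene sf3b6 encodes the small subunit that touches the branch point adenosine; it read 9.64, 9.56 and 9.52 in heterozygous and 9.58, 9.48 and 9.29 in mutant pools at 7 dpf, then 9.29, 9.48 and 9.34 against 8.89, 8.92 and 8.87 at 28 dpf. For sf3b3 the 28 dpf pools were 8.60, 8.51 and 8.62 in heterozygous and 8.12, 8.15 and 8.20 in mutant eyes, after 8.80, 8.81 and 8.72 and 8.71, 8.73 and 8.72 at 7 dpf. For sf3b2 they were 8.51, 8.61 and 8.5 against 8.14, 8.19 and 8.14, after 8.89, 8.74 and 8.67 and 8.74, 8.63 and 8.70. The differences of sf3b6, sf3b3 and sf3b2 at 28 dpf were -0.48 ± 0.07, -0.42 ± 0.06 and -0.38 ± 0.07 (adjusted p = 3.03e-05, 1.11e-05 and 0.000121), again without overlap. The largest subunit, encoded by sf3b1, and sf3b4 both fell by 0.28 (adjusted p = 0.000699 and 0.00605), and after centring these differences were -0.08 and -0.08 and not called. With the mean over its probe sets sf3b1 was not called either (adjusted p = 0.0788). Its dimmer probe set, part of that mean, exceeded the 33rd percentile on 0 arrays. The 2 genes that did not pass were sf3a2 (-0.10 ± 0.08) and sf3b5 (-0.06 ± 0.09).

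The PRPF factors ranged from the largest fall of the family to differences near 0. Of 12 tested genes 7 fell and 0 rose (after centring 5 fell and 2 rose; median as deposited -0.34). The largest fall among all 66 members was in prpf19, whose pools read 9.31, 9.34 and 9.28 in heterozygous and 8.40, 8.44 and 8.43 in mutant eyes. The difference of -0.89 ± 0.07 (adjusted p = 5.32e-08) was 0.66 larger in size than at 7 dpf. The second-step factor gene prpf18 read 9.08, 9.13 and 9.02 in heterozygous and 9.04, 9.07 and 8.80 in mutant pools at 7 dpf, then 9.21, 9.09 and 9.01 against 8.35, 8.28 and 8.55 at 28 dpf. All 3 mutant pools at 28 dpf were below the other 9, at -0.71 ± 0.08 (adjusted p = 2.83e-06). Near 0 were prpf39, a U1-associated factor, at -0.02 ± 0.06, and prpf38b at -0.02 ± 0.10. The gene prpf38a, whose product joins the spliceosome before activation, differed by -0.28 ± 0.12 and missed the threshold (adjusted p = 0.0526).

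The PRPF genes linked to human retinitis pigmentosa were read one by one. The scaffold of the catalytic centre is encoded by prpf8, which read 10.10, 10.03 and 9.98 in heterozygous and 10.04, 10.07 and 9.90 in mutant pools at 7 dpf, then 9.80, 9.81 and 9.78 against 9.33, 9.38 and 9.33 at 28 dpf. The mutant pools at 28 dpf did not overlap any other group, and the difference was -0.45 ± 0.06 (adjusted p = 4.06e-06). The U4/U6 snRNP gene prpf3 read 6.66, 6.56 and 6.30 in heterozygous and 6.69, 6.56 and 6.33 in mutant pools at 7 dpf, then 6.04, 6.38 and 6.47 against 5.96, 5.71 and 5.72 at 28 dpf. This was a fall of 0.50 (SE 0.13, adjusted p = 0.00384), in a gene whose 3 mutant pools at 28 dpf were all below the 33rd percentile. Its second, dimmer probe set had a larger difference of -1.0 in a fit over all probe sets (adjusted p = 0.000179). Its partner prpf4 averaged 7.5 ± 0.05 in heterozygous and 7.09 ± 0.17 in mutant eyes (SD, n = 3), a fall of 0.40 (limma adjusted p = 0.00747). Under centring prpf4 differed by -0.21 and under quantile normalization by -0.21, with no call under either. The tri-snRNP bridge gene prpf6 fell by 0.18 (adjusted p = 0.0384), but after centring its difference was 0.02 and not called, and the call was lost without heterozygous pool 1 or 2 or mutant pool 1 or 3 of that age. The U4/U6 gene prpf31 did not pass, at -0.15 ± 0.07 (adjusted p = 0.0656). Outside the chosen names, the helicase genes snrnp200 and dhx38, also linked to retinal disease, fell by 0.46 and 0.57 (adjusted p = 1.49e-05 and 1.86e-05). Among the 9 such genes listed, 7 fell at 28 dpf, against 39% of all genes, and 5 fell under either of the other scalings. At 7 dpf limma called 0 of them.

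The hnRNP genes gave the most falls by number. Of 19 tested genes 14 fell and 0 rose (after centring 6 fell and 1 rose), and all 19 differed below 0 as deposited, with a median of -0.26. The gene of hnRNP H, which binds runs of G, gave close replicates: hnrnph1 read 8.84, 8.82 and 8.82 in heterozygous and 8.74, 8.74 and 8.69 in mutant pools at 7 dpf, then 8.94, 8.94 and 8.93 against 8.13, 8.09 and 8.27 at 28 dpf. The mutant pools lay below the heterozygous pools at both ages, narrowly at 7 dpf, and the difference at 28 dpf was -0.77 ± 0.06 (adjusted p = 2.76e-08). Its relative hnrnph1l fell by 0.38 (adjusted p = 0.000714). The gene of the splicing repressor hnRNP A1, hnrnpa1a, read 7.72, 8.10 and 7.96 in heterozygous and 8.12, 8.07 and 8.09 in mutant pools at 7 dpf, then 8.17, 8.05 and 8.02 against 7.46, 7.72 and 7.59 at 28 dpf. For hnrnpa3, of the same A/B family, the pools were 7.48, 7.38 and 7.49 and 7.71, 7.46 and 7.66 at 7 dpf, then 7.54, 7.66 and 7.49 and 6.90, 7.16 and 7.20 at 28 dpf. Differences of -0.49 ± 0.09 and -0.48 ± 0.09 at 28 dpf (adjusted p = 0.00023 and 0.000285) followed differences of 0.17 and 0.16 at 7 dpf that did not pass. In both genes the mutant pools at 28 dpf lay below the heterozygous pools of that age. The A/B gene hnrnpaba read 11.19, 11.21 and 11.12 in heterozygous and 11.20, 11.09 and 11.04 in mutant pools at 7 dpf, then 10.97, 11.04 and 10.93 against 10.34, 10.51 and 10.33 at 28 dpf, a fall of 0.58 (adjusted p = 5.55e-07).

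Smaller falls were seen in hnrnpl2 (-0.37), hnrnpc (-0.33), whose product covers uridine tracts and keeps cryptic exons out, the chromatin-bound RNA-binding protein gene hnrnpua (-0.32) and its duplicate hnrnpub (-0.24). Others were hnrnpul1 (-0.28), hnrnpd (-0.26), whose product binds AU-rich elements, hnrnpa0l (-0.22), hnrnpul1l (-0.21) and hnrnpl (-0.17), which binds CA repeats. After centring hnrnpl differed by 0.03, on the other side of 0, and of these 9 genes hnrnpl2 alone was still called as fallen. The call of hnrnpl was also lost without heterozygous pool 2 or mutant pool 3 of that age. The 5 that did not pass were hnrnpa0b (-0.16 ± 0.07), hnrnpr (-0.15 ± 0.06), hnrnpdl (-0.13 ± 0.06), hnrnpm (-0.07 ± 0.06) and the C-rich tract binder hnrnpk (-0.04 ± 0.07). Probe sets that list a second gene were left out of the family. The one shared by hnrnpa1b and zfr differed by -0.77 at 28 dpf, the one of hnrnpabb and pygo2 by -0.30 and the one of sf3a1 and pold2 by -0.17, and both probe sets of dpf2l and hnrnpa0a by -0.03 and -0.12. In the fit over all probe sets the first 2 of these 5 were called, and for none can the source gene be told.

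The SR proteins, which mostly promote exon inclusion from exonic enhancers, gave small differences in both directions. Of 17 tested genes 3 rose, 3 fell and 11 did not pass, each way 17.6% against 21.8% and 39% of all genes. The median was 0.05, above the -0.09 of all genes. Rises were seen in both srsf3 genes, srsf3a (0.16 ± 0.06, adjusted p = 0.0352) and srsf3b (0.13 ± 0.05, adjusted p = 0.0483), the smallest SR proteins, and in srsf7a, which carries a zinc knuckle beside its RNA-binding domain. On the arrays srsf7a read 9.93, 9.97 and 9.86 in heterozygous and 9.79, 9.84 and 9.60 in mutant pools at 7 dpf, then 9.57, 9.58 and 9.34 against 9.63, 9.72 and 9.68 at 28 dpf. Its mutant pools changed sides, from below the heterozygous pools at 7 dpf to above them at 28 dpf, where the difference was 0.18 ± 0.07 (adjusted p = 0.0439). The rises were fragile. All 3 were lost without heterozygous pool 3 or mutant pool 2 or 3 of that age, 1 was left without heterozygous pool 1 or 2 of 7 dpf, and srsf3b alone was lost without any of 10 of the 12 arrays. The largest fall was in srsf4, whose product is a long SR protein. On the arrays srsf4 read 10.56, 10.52 and 10.63 in heterozygous and 10.54, 10.54 and 10.57 in mutant pools at 7 dpf, then 10.55, 10.61 and 10.42 against 10.24, 10.33 and 10.17 at 28 dpf. The mutant pools at 28 dpf lay below all other pools, at -0.28 ± 0.06 (adjusted p = 0.000667). The pair srsf6a and srsf6b fell by 0.15 and 0.14 (adjusted p = 0.0282 and 0.0456), calls that were lost without any 1 of 3 pools (heterozygous pools 1 and 2 and mutant pool 1 of 28 dpf) for srsf6a and any 1 of 8 arrays for srsf6b. Pools of srsf6b read 9.18, 9.16 and 9.23 in heterozygous and 9.28, 9.25 and 9.38 in mutant eyes at 7 dpf. At 28 dpf they read 9.45, 9.33 and 9.37 against 9.27, 9.20 and 9.26. Its mutant pools thus lay above the heterozygous pools at 7 dpf and below them at 28 dpf. After centring 0 SR genes fell, 12 rose, and srsf6a and srsf6b differed by 0.05 and 0.06. After quantile normalization 5 rose and 3 fell.

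The genes that did not pass included srsf1a (-0.03 ± 0.06) and srsf1b (0.11 ± 0.06), the general splicing factor SF2/ASF of mammals, and srsf2a (-0.04 ± 0.05) and srsf2b (0.05 ± 0.06). They also included srsf5a (0.04), srsf5b (-0.11), srsf7b (0.08), srsf9 (0.06), srsf11 (0.12), srsf10b (0.09) and srsf10a (-0.14). SRSF10 is known in mammals as a splicing repressor when it loses its phosphates. On the arrays srsf10a read 9.37, 9.37 and 9.30 in heterozygous and 9.45, 9.44 and 9.45 in mutant pools at 7 dpf, then 9.29, 9.06 and 9.20 against 9.12, 9.02 and 9.0 at 28 dpf. Its mutant pools were the higher ones at 7 dpf, and at 28 dpf the difference was -0.14 ± 0.06 (limma adjusted p = 0.06). The change between the ages passed, at -0.24 ± 0.09 (adjusted p = 0.034).

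**Figure D2:**
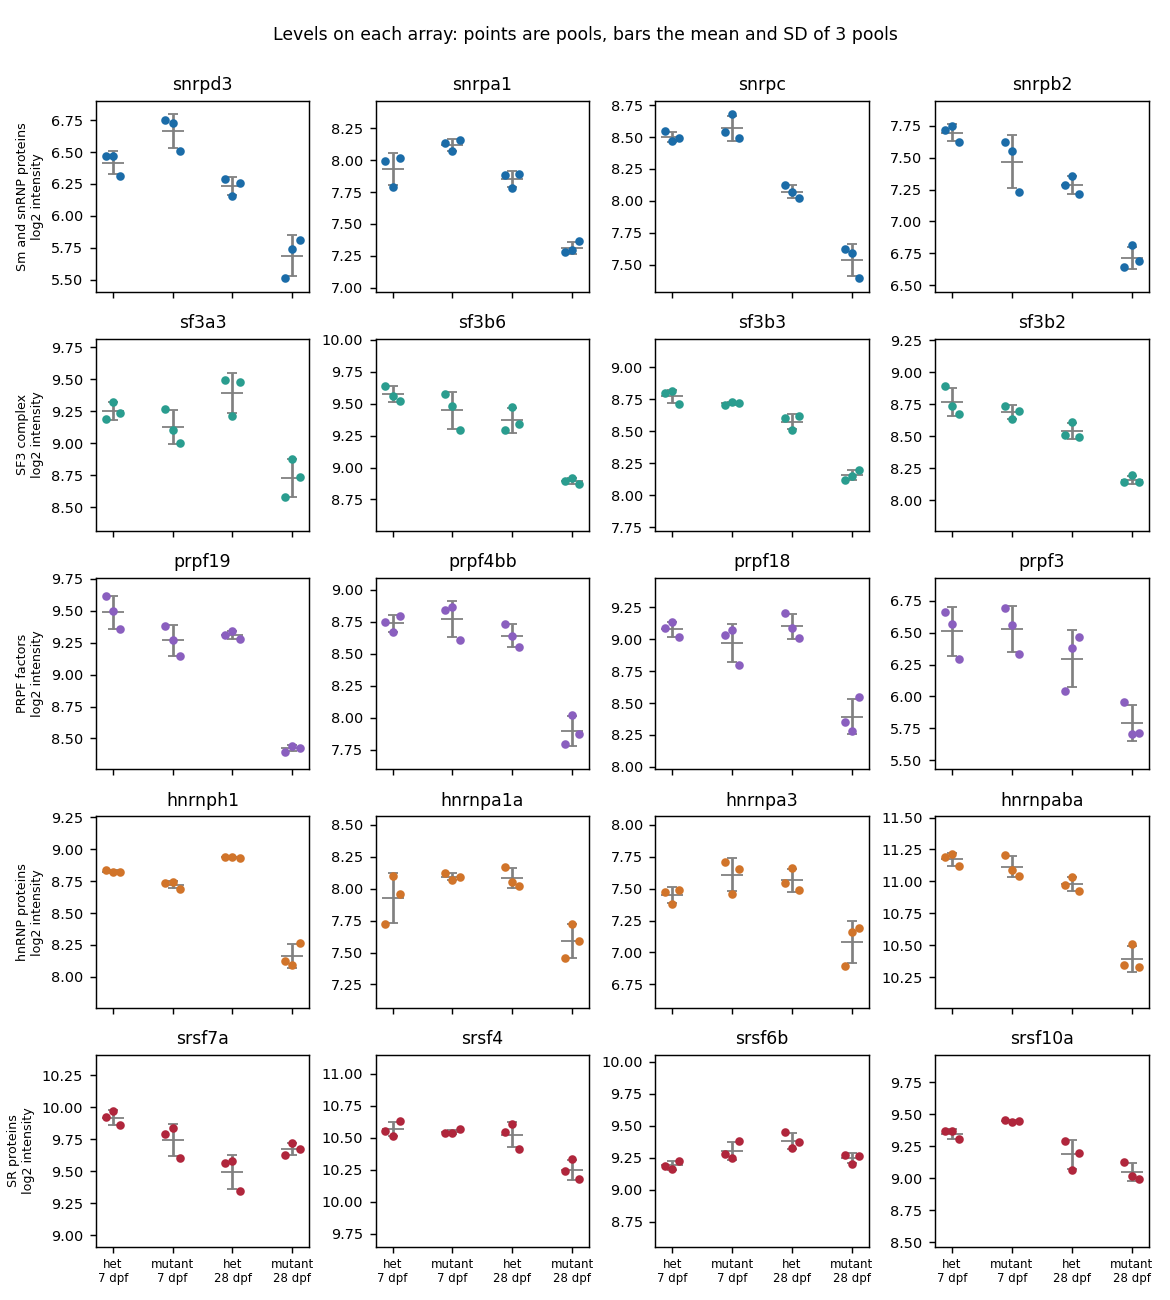
Log2 intensity of the 4 members of each subfamily with the largest differences at 28 dpf or between the ages, by group; each point is 1 pool and the bars are the mean and SD of 3 pools. Every panel spans 1.5 log2 units, and in the upper 4 rows the 3 mutant pools at 28 dpf lie below the 3 heterozygous pools of that age.

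Duplicate genes allow a comparison that no scaling by a constant touches. The difference between copies a and b was fitted on the same arrays for 1790 pairs of tested symbols that end in a and b. Members form 9 of these pairs. Left out by name were snrpa with snrpb and prpf38a with prpf38b, which are different genes rather than duplicates. All other pairs were picked by symbol alone, so the shares of all pairs may include genes that are not duplicates. Between the genotypes at 28 dpf the copies differed in 2 of the 9 pairs, against 49.3% of all pairs. The kinase gene pair of prpf4b, whose product phosphorylates tri-snRNP proteins, separated widely: prpf4ba differed by -0.04 and prpf4bb by -0.75. On the arrays prpf4bb read 8.75, 8.67 and 8.79 in heterozygous and 8.84, 8.86 and 8.61 in mutant pools at 7 dpf, then 8.73, 8.64 and 8.55 against 7.79, 8.02 and 7.88 at 28 dpf. For prpf4ba the same groups gave 9.86, 9.92 and 9.997, then 10.03, 10.04 and 10.04, and at 28 dpf 9.92, 9.84 and 9.99 and 9.86, 9.93 and 9.85. At 28 dpf the genotypes overlapped for prpf4ba and did not for prpf4bb, and the copies' genotype differences were apart by 0.71 ± 0.09 (limma adjusted p = 3.53e-05). In the srsf10 pair copy a differed by -0.14 and copy b by 0.09, apart by -0.23 ± 0.08 (limma adjusted p = 0.0354). This call was lost in 3 of 16 other settings, tried after the data were seen. In the other 7 pairs the copies' differences lay at most 0.154 apart and none passed. At 7 dpf 0 of the 9 pairs passed by limma, against 16.3% of all pairs, and 3 had an unadjusted p under 0.05. The change between the ages differed between copies for prpf4b, by 0.63 ± 0.13 (limma adjusted p = 0.00205), and srsf10, by -0.33 ± 0.12 (limma adjusted p = 0.0389), against 40% of all pairs, and the latter call was lost in 7 of 16 settings. With age in mutant eyes the copies of prpf4b, srsf1 and srsf10 moved apart, by 0.72, -0.21 and -0.27, against 56.9% of all pairs. For srsf1 this call was lost in 7 of 16 settings. Probes of duplicates may share target sequence, which was not tested.

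Whether the genotype difference changed between the ages was tested directly, as the 28 dpf difference minus that at 7 dpf. This quantity fell in 30 of the 66 members and rose in 1, against 29.1% and 18.1% of all genes, and after centring it fell in 14 and rose in 5. Without heterozygous pool 2 of 28 dpf it rose in 2. By subfamily 11 of 19 hnRNP, 7 of 12 PRPF, 5 of 8 SF3, 4 of 10 snrp and 3 of 17 SR genes fell by it. The largest change was in snrpd3, from 0.25 to -0.55 (a change of -0.79 ± 0.15, adjusted p = 0.000393). Next came prpf4bb, from 0.03 to -0.75, and snrpa1, from 0.19 to -0.54 (adjusted p = 4.8e-05 and 3.52e-05). The gene that rose was srsf7a, from -0.18 to 0.18 (a change of 0.35 ± 0.10, adjusted p = 0.00985). Members called at 28 dpf without a change between the ages that passed included sf3b4, at -0.10 and -0.28, and snrpa, at -0.16 and -0.34.

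**Figure D3:**
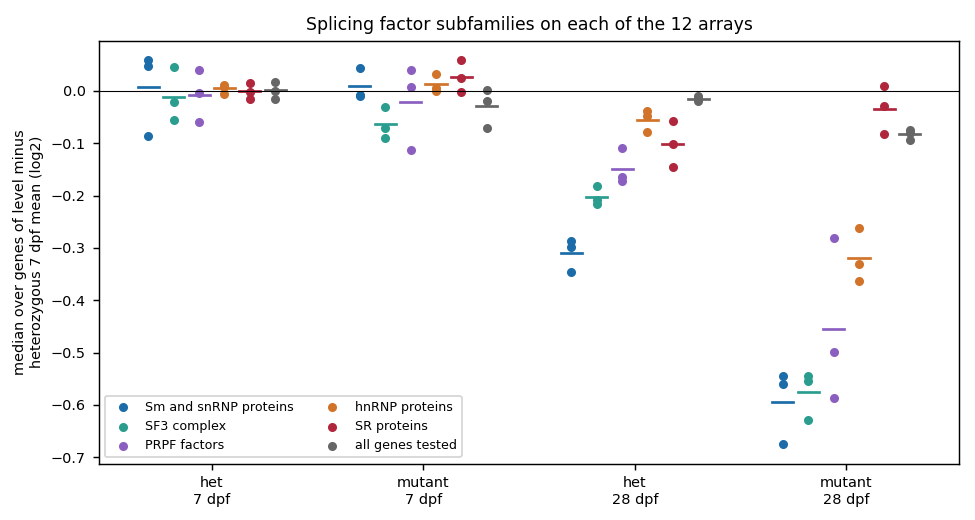
Median over the genes of each subfamily of the level minus the heterozygous 7 dpf mean (log2), on each of the 12 arrays; points are arrays, bars the mean of 3. At 28 dpf the 3 mutant arrays lie below the 3 heterozygous arrays for the snrp, SF3, PRPF and hnRNP genes, and the SR genes overlap.

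Part of the machinery also fell between the larval and the juvenile age, in heterozygous eyes too. Marker levels of several cell types moved with age as well, with values given with the other markers. From 7 to 28 dpf 23 members fell and 4 rose in heterozygous eyes, against 22.1% and 20.9% of all genes, with a median member at -0.12 and a median gene at -0.02. The arrays of the ages did not overlap for 34 members that were lower and 6 that were higher at 28 dpf (29.2% and 27% of all genes). Without heterozygous pool 1 of 7 dpf or pool 3 of 28 dpf, 15 members fell. The snrp and SF3 genes gave 6 falls of 10 and 5 of 8, the PRPF and hnRNP genes 3 of 12 and 3 of 19. Of the SR genes 6 fell and 3 rose. Large falls in heterozygous eyes were those of snrpd3l (-0.47 ± 0.09, adjusted p = 0.000474), snrpc (-0.43), srsf7a (-0.42) and snrpb2 (-0.41). The rises were srsf5a (0.27), hnrnpd (0.26), srsf5b (0.24) and srsf6b (0.19). The duplicates of srsf6 and srsf7 moved apart with age, srsf6a at -0.16 and srsf7b at 0.12 against the values of their copies above. The age changes of the copies, a minus b, differed by -0.35 ± 0.08 (limma adjusted p = 0.00264) for srsf6 and -0.54 ± 0.11 (limma adjusted p = 0.00107) for srsf7. With srsf1, whose copies differed by -0.26, 3 of 9 pairs passed, against 46.5% of all pairs, and the srsf1 call was lost in 3 of 16 settings. In mutant eyes the age changes of srsf7a and snrpd3l were -0.07 and -0.24, and the genotypes' age changes differed for srsf7a, as given above, but did not pass for snrpd3l (adjusted p = 0.147).

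In mutant eyes 47 members fell with age and 2 rose, against 37.9% and 26% of all genes, and the median member moved by -0.37. All 10 snrp genes fell, 7 of 8 SF3, 10 of 12 PRPF and 16 of 19 hnRNP genes, but 4 of 17 SR genes. Of the 49 members outside the SR family all 49 differed below 0 as deposited, and the arrays of the 2 ages did not overlap for 44. Over all 66 members, 50 were lower at 28 dpf without overlap and 4 higher, where 38.2% and 27.5% of all genes were. The falls of snrpc (-1.03 ± 0.07), snrpd3 (-0.97 ± 0.10), prpf4bb (-0.88 ± 0.08), prpf19 (-0.84 ± 0.07) and snrpa1 (-0.81 ± 0.07) led, with adjusted p = 1.31e-08, 7.17e-07, 1.51e-07, 6.3e-08 and 1.19e-07. The 2 genes that rose in mutant eyes, srsf5a and srsf5b, both at 0.17, also rose in heterozygous eyes, and 1 of the 2 calls was lost without mutant pool 2 of 7 dpf or pool 1 or 2 of 28 dpf. Falls with age were called in both genotypes for 20 members, out of the 23 that fell in heterozygous and the 47 that fell in mutant eyes, and in mutant eyes alone for 27. These are 30.3% and 40.9% of the members, against 12% and 25.9% of all genes. For 18 of the 27 the difference between the genotypes' age changes itself passed, a count for which no share of all genes was taken. Genes called in mutant eyes alone are already chosen towards such a difference, so the count does not set the members apart. Under all 3 scalings 37 members fell with age in mutant and 23 in heterozygous eyes, and the rises in mutant eyes numbered 0. No share of all genes was taken for these counts. Relative to the median of all genes, 59 of the 66 members lay lower in mutant and 51 in heterozygous eyes. With no call in any of the 5 comparisons there were 9 members, 13.6% against 15.5% of all genes: hnrnpa0b, prpf38b, prpf39, sf3a2, srsf1a, srsf1b, srsf2a, srsf2b and srsf7b.

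**Figure D4:**
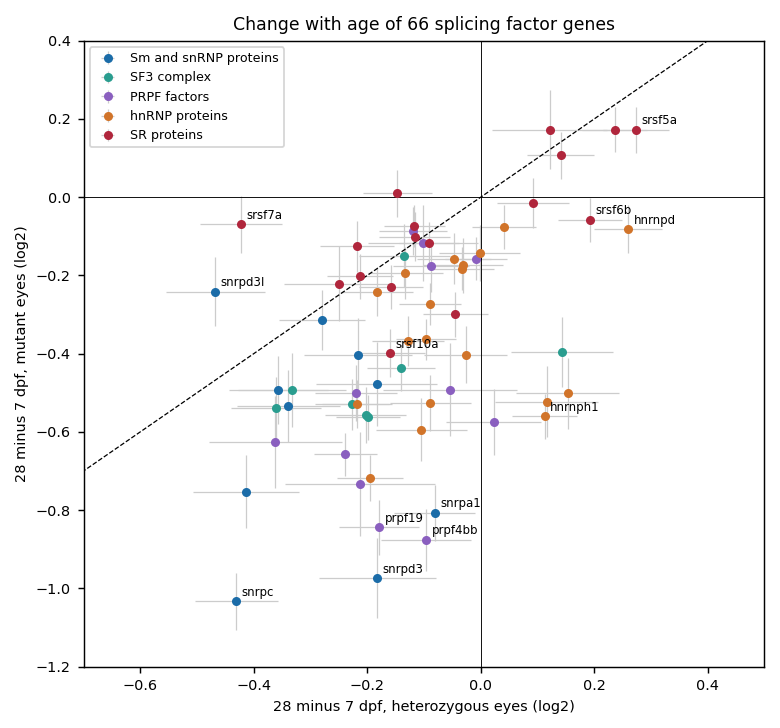
Change from 7 to 28 dpf of the 66 splicing genes in heterozygous (x axis) and mutant eyes (y axis), on the log2 scale with standard errors (n = 3 against 3); the dashed line marks equal change. All snrp, SF3, PRPF and hnRNP genes lie below 0 on the y axis, and snrpc lies lowest at -1.03.

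Other splicing genes, in lists drawn up for the same roles, were read beside the members. Genes of catalytic spliceosome proteins and helicases fell in 21 of 28 tested cases at 28 dpf and rose in 0 (median -0.37), with bud13 at -0.94 ± 0.09, the intron-binding helicase gene aqr at -0.81 ± 0.07 and cwc22 at -0.68 ± 0.08 (adjusted p = 2.09e-07, 6.31e-08 and 2.73e-06). The snRNP-specific and LSm genes fell in 16 of 28 and rose in 1, with usp39 (-0.99 ± 0.10), needed to bring the tri-snRNP in, rnpc3 (-0.80 ± 0.08) of the minor spliceosome and ppih (-0.75). LSm genes were listed by family name, so some on this list are not known parts of the spliceosome. Among those are lsm12a (-0.55), lsm14aa (-0.49), lsm12b (-0.06) and lsm14ab (0.04). Genes of 3' splice site and branch site recognition fell in 14 of 23 and rose in 2, with rbm17 at -0.67, the polypyrimidine tract binder gene u2af2a at -0.63 ± 0.06 and htatsf1 at -0.63. Among genes that assemble snRNPs 6 of 11 fell and 1 rose, with gemin5 at -0.57 ± 0.07, ddx20 at -0.36 and gemin7 at 0.52. Exon junction and SR-related genes fell in 7 of 16 (rbm8a -0.43, thoc1 -0.34, magoh -0.34). These shares compare with 39% of all genes that fell. After centring, falls and rises numbered 14 and 2 for the catalytic proteins, 12 and 5 for the snRNP-specific genes, 10 and 7 for the 3' splice site genes, 1 and 3 for the assembly genes and 1 and 6 for the exon junction genes, where thoc1, magoh and ddx20 were no longer called. Over all genes 36% of the calls after centring were falls. In the same order, 25 of 28, 21 of 28, 16 of 23, 7 of 11 and 8 of 16 lay below the median of all genes, which centring does not change.

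Regulators of splice choice were split. SR protein kinase genes rose in 2 and fell in 2 of 10, with srpk2 at 0.41 ± 0.07 (adjusted p = 0.000153), clk4b at -0.29 ± 0.06 and dyrk1ab at -0.20. Neural and tissue-specific splicing regulators rose in 11 and fell in 17 of 45 (median -0.01), shares close to those of all genes. The largest differences as deposited were falls of elavl1b (-0.89 ± 0.07), a stabiliser of AU-rich mRNAs, tia1 (-0.53 ± 0.05) and the neuronal tract-binding gene ptbp2b (-0.53 ± 0.05). After centring tia1 and ptbp2b differed by -0.33 each, less in size than the rise of celf3a, a gene named after its values were seen, at 0.49 as deposited and 0.69 after centring. Also named after their values were seen, celf3b (0.46), rbfox1 (0.45), nova2 (0.44) and celf5a (0.38) were higher as deposited. Each was called as a rise after centring and after quantile normalization. The 11 rises and 17 falls cover the whole list, so they do not describe neural genes alone. After centring the kinases gave 0 falls and 4 rises and the regulators 4 and 22, and clk4b and dyrk1ab were no longer called. Relative to the median of all genes, 4 of 10 kinases and 20 of 45 regulators lay lower. At 7 dpf each list of other splicing genes had at most 3 calls in all.

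**Figure D5:**
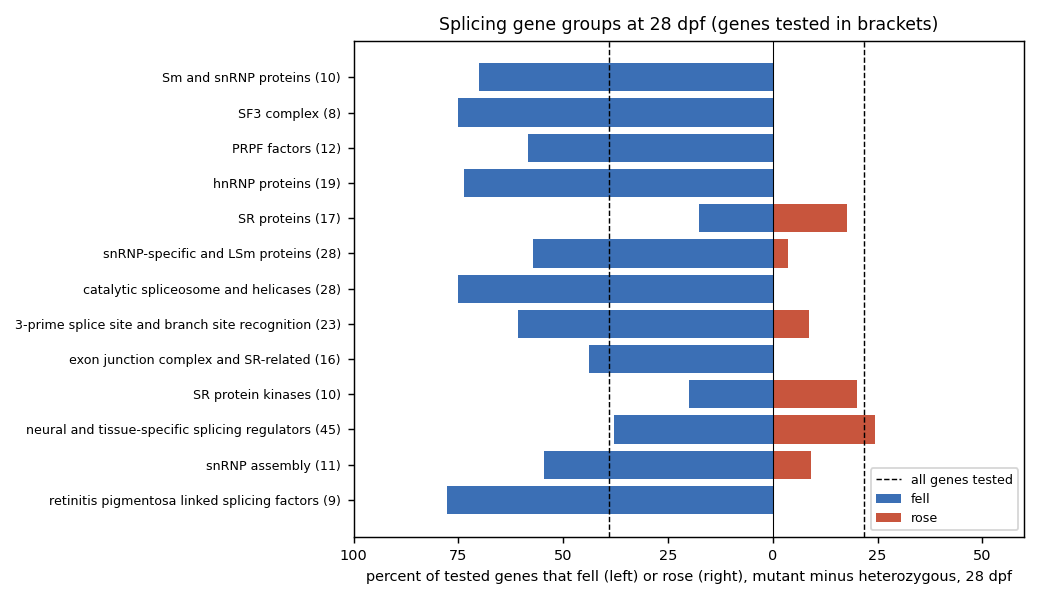
Percent of the tested genes of each splicing gene group that fell (left, blue) or rose (right, red) in mutant against heterozygous eyes at 28 dpf, by limma adjusted p under 0.05; numbers of genes in brackets and dashed lines at 39% and 21.8%, the shares over all 14002 genes. The retinitis pigmentosa list repeats 5 PRPF genes and some genes of the other lists.

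Markers of dividing cells moved in the same comparisons. Over all genes 39% fell and 21.8% rose at 28 dpf as deposited. With age 22.1% of all genes fell and 20.9% rose in heterozygous eyes, and 37.9% fell and 26% rose in mutant eyes. Marker counts near these shares do not by themselves mark a change in a cell type. Of 15 tested cycling-cell genes 13 fell and 0 rose at 28 dpf, led by ccna2 (-1.06) and tyms (-0.84), and all 15 fell with age in both genotypes. After centring 8 fell at 28 dpf, and 15 and 14 fell with age in heterozygous and mutant eyes. Their median level was 8.33 to 8.58 over the heterozygous and 8.29 to 8.56 over the mutant arrays at 7 dpf, and 7.80 to 7.92 against 7.01 to 7.27 at 28 dpf. The dimmest, ccnb1, averaged 6.05 in heterozygous fish of that age against 5.76 in mutants, and the part of these cells in the splicing gene falls was not tested. Of 4 retinal progenitor genes 3 rose and 1 fell at 28 dpf, with rx2 at 0.29 and fabp7a at -0.45. Photoreceptor markers gave 2 rises and 3 falls of 9 (pde6a -0.52, opn1mw1 0.48) and lens markers 1 and 1 of 8 (lim2.4 0.34, mipa -0.17). Inner retina neuron markers rose in 6 of 8 (grm6b 0.74, pvalb6 0.36), and pigment epithelium markers fell in 4 of 5 (rpe65a -0.62, rdh5 -0.61). Muller glia markers gave 1 rise and 1 fall of 6 (apoeb 0.28, cahz -0.59). Skeletal muscle markers had a median level of 7.69 to 7.91 in heterozygous and 6.86 to 7.87 in mutant arrays at 28 dpf, and 1 of 6 fell (acta1b -1.21). Erythrocyte markers gave 2 rises (hbae1.1 3.19, hbae3 1.46) and 2 falls (slc4a1a -0.63, alas2 -0.45) of 4. Their median change with age was -2.01 in heterozygous and -0.53 in mutant eyes. The 1 myelin gene tested, mbpa, fell by 0.58, and 0 of 3 macrophage genes passed by limma, or at an unadjusted p under 0.05 (csf1ra 0.04 ± 0.07). After centring mipa differed by 0.02 and was not called. Rises then numbered 5 for photoreceptor, 6 for lens, 3 for Muller glia, 7 for inner retina, 1 for pigment epithelium and 1 for macrophage markers, and falls 1, 0, 1, 0, 3 and 0. Over all genes 36% of the calls under that scaling were falls. Some markers already differed between the genotypes at 7 dpf. Pigment epithelium markers fell in 4 of 5 (rpe65a -0.46, rdh5 -0.55) and Muller glia markers in 3 of 6, with 0 rises. Photoreceptor markers gave 1 rise and 2 falls of 9, inner retina markers 1 and 1 of 8 and cycling-cell markers 1 and 0 of 15. The other marker lists gave 0 calls at that age, when 4.05% of all genes rose and 8.4% fell. With age skeletal muscle markers rose in 6 of 6 in both genotypes (median 1.48 in heterozygous and 0.92 in mutant eyes), and photoreceptor markers in 5 and 7 of 9 (median 0.82 and 0.71). Inner retina markers fell with age in 7 of 8 in heterozygous and 5 of 8 in mutant eyes, and pigment epithelium markers in 4 and 3 of 5. The part of these cell types in the splicing gene differences was not tested.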

How the data were processed

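RNA of whole zebrafish eyes was hybridised to 12 Affymetrix arrays, 3 pools in each of 4 groups. Per the submitters' processing notes, the deposited log2 values come from RMA in Affymetrix Expression Console. RMA makes all arrays alike over 75212 probe sets, so a shift common to most probe sets is removed. A shift of the named probe sets alone can remain. Their median at 28 dpf averaged 7.23 in heterozygous against 7.03 in mutant eyes. These log2 values, whose array medians lay between 5.64 and 5.70, were used as deposited, and the number of arrays limits the precision. Platform annotation gave 1 symbol to 20806 probe sets, several to 855 and none to 53551; the last 2 kinds were not used for members. All 68 members were matched by Entrez ID to RefSeq genes of the same symbol. The brightest probe set per gene over all arrays was kept. The test took genes brighter than the 33rd percentile of probe sets with 1 symbol (6.14 to 6.26) on at least 3 of the 12 arrays.

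One linear model with a mean per group was fitted to all 12 arrays in limma 3.58.1 (R 4.3.3), with a variance trend, 8 residual degrees of freedom and two-sided p-values adjusted by the Benjamini-Hochberg method over 14002 genes. Values after ± are standard errors of the fit unless named SD. The procedure was run on simulated data with 200 shifted genes. Noise there was drawn independently for each gene without a shift between arrays, so it cannot address the scaling. No outcome of that run is given here. Members, gene lists and tests were chosen with earlier results of these data known. Levels on every array are given for up to 4 genes per subfamily with the largest called difference at 28 dpf or between the ages. Duplicates are set side by side, and the retinitis pigmentosa linked PRPF genes are named whatever their values. Other lists are represented by up to 3 genes, and marker lists by up to 2, of largest difference, or the brightest where none passed. Added to these after their values were seen were celf3a, celf3b, celf5a, nova2, rbfox1, slc4a1a and alas2. Alternatives were other scalings (centring on the median of the named probe sets, quantile normalization), no filter, the mean over probe sets, all probe sets, no trend, array weights, only the groups compared, a replicate block and each pool left out. Sequences of the genes and the genome build of the probes were not used here.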

Additional observations from a re-analysis of the deposited data

Results flagged for a closer look

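In 31 splicing genes the difference between mutant and heterozygous eyes itself changed from 7 to 28 dpf, by the limma test of the 28 dpf minus the 7 dpf difference. That is 47.0% of the members tested, against 47.2% of all genes, so the total was not above the general share. As deposited, negative changes made up 45.5% of the members against 29.1% of all genes, and positive changes 1.5% against 18.1%. Values in brackets are that change on the log2 scale, each from 3 pools in each of the 4 groups. Among genes of the snRNPs these were snrpd3 (-0.79), snrpa1 (-0.73), snrpc (-0.60) and snrpb2 (-0.34). The SF3 genes were sf3a3 (-0.54), sf3b3 (-0.36), sf3b6 (-0.35), sf3b2 (-0.30) and sf3b1 (-0.30). PRPF genes were prpf4bb (-0.78), prpf19 (-0.66), prpf18 (-0.60), prpf3 (-0.52), prpf4 (-0.44), prpf8 (-0.42) and prpf6 (-0.28), with adjusted p from 4.8e-05 to 0.0407. The hnRNP genes, the largest set, were hnrnph1 (-0.67), hnrnpa1a (-0.66), hnrnpa3 (-0.64), hnrnpaba (-0.52), hnrnph1l (-0.49), hnrnpc (-0.44), hnrnpua (-0.38), hnrnpd (-0.34), hnrnpub (-0.31), hnrnpl2 (-0.27) and hnrnpm (-0.24). Among SR genes the change was negative in srsf4 (-0.25), srsf6b (-0.25) and srsf10a (-0.24) and positive in srsf7a (0.35), the 1 gene whose mutant level moved from below to above the heterozygous level. With single arrays left out, 7 of the 31 calls were lost in some settings. Those of prpf4 and snrpb2 were lost without any of 9 of the 12 arrays, those of prpf6 and srsf10a without any of 8, that of prpf3 without any of 7, that of hnrnpm without any of 6 and that of srsf4 without heterozygous pool 2 of 28 dpf. After centring the arrays on the named probe sets 14 of the negative changes and that of srsf7a were still called.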

How the results depend on the processing

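Scaling had the largest effect. After each array was centred on its named probe sets, members that rose numbered 1 at 7 dpf, 17 at 28 dpf, 5 in the change between the ages and 5 with age in mutant eyes, and those that fell 19 at 28 dpf and 14 in the change between the ages. The members' median moved to -0.017 at 28 dpf, -0.022 for the change between the ages and -0.23 with age in mutant eyes. Of the members that fell at 28 dpf, hnrnpl (0.026), prpf6 (0.016), srsf6a (0.045) and srsf6b (0.061) changed sign, and these 4 were then not called. The 14 added rises were members not called as deposited. After quantile normalization rises numbered 3 at 7 dpf, 6 at 28 dpf, 3 in the change between the ages and 1 with age in mutant eyes, falls at 7 dpf numbered 0, the 28 dpf median was -0.14, and the age difference between srsf1a and srsf1b in mutant eyes turned to 0.013. The cause of these shifts was not tested. The 1 fall at 7 dpf became 0 without the filter, with all probe sets fitted together, without a variance trend and with only the groups compared, and 2 with array weights, which also gave 3 rises. The 3 rises at 28 dpf became 1 without the filter, without a trend or with only the groups compared, and 0 with all probe sets, which also left 15 falls with age in heterozygous eyes. With single pools left out, falls ranged from 0 to 1 at 7 dpf, 33 to 39 at 28 dpf, 24 to 30 in the change between the ages, 15 to 25 with age in heterozygous and 42 to 47 in mutant eyes. Rises ranged from 0 to 4 at 28 dpf, 1 to 2 in the change between the ages, 3 to 5 with age in heterozygous and 1 to 2 in mutant eyes. Replicate numbers are shared by the groups. Deviations of same-numbered pools correlated at -0.07, 0.06 and 0.12 at 7 dpf and 0.14, 0.09 and 0.10 at 28 dpf, so the pools were not taken as paired, although at 28 dpf every pool correlated best with its own number. With the replicate block 2 members fell at 7 dpf, the other counts stayed within 1.5 times, and of 148 single gene calls 147 held. Dim genes such as prpf3 and snrpd3 lie near background in mutant eyes at 28 dpf, which limits the size of their falls.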

Other observations

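Some members have a dimmer probe set that was not used for the counts, fitted here among all probe sets. At 28 dpf these differed by -1.0 for prpf3, -0.25 for prpf6, -0.23 for hnrnpa0l, -0.13 for prpf4, -0.08 for sf3b1, 0.11 for snrpa and 0.08 for srsf1a. The brighter probe sets of the same genes differed by -0.50, -0.18, -0.22, -0.40, -0.28, -0.34 and -0.03. The dimmer probe set was the one further below 0 for prpf3, prpf6 and hnrnpa0l, and the probe sets of snrpa and srsf1a disagreed in sign. However, the dimmer probe sets of prpf4, sf3b1 and snrpa exceeded the 33rd percentile on 0 arrays and that of srsf1a on 3. In that fit the dimmer probe sets of snrpa and srsf1a were not called (limma adjusted p = 0.444 and 0.613), so their sign is uncertain.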
